A study of Mus musculus with 12 samples.

Results

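Aminoacyl-tRNA synthetases are the enzymes that attach each amino acid to its transfer RNA. They were followed here in the colon of mice with dextran sulfate sodium (DSS) colitis, with and without L-arginine (L-Arg) in the drinking water. The enzymes were chosen by gene symbol alone, as every synthetase symbol of the array platform that had a probe set of its own, and the brightest probe set was kept for each gene. This gave 35 of the 19938 genes measured, of which 16 encode mitochondrial enzymes (symbols ending in 2) and 19 encode cytosolic enzymes. Tarsl2, a threonyl-tRNA synthetase, ends in 2 but was counted with the cytosolic enzymes, and Gars and Kars, which serve glycine and lysine in both compartments, were also counted there. The cytosolic alanyl enzyme Aars was represented by a probe set shared with Exosc6 and was left out.

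Colon RNA came from 12 male wild-type C57BL/6 mice, hybridized to an Affymetrix Gene ST array each, in 4 groups of 3 mice. The mice were 7 weeks old at the start and are labelled with an age of 8 weeks and 3 days. DSS+L-Arg mice drank 4% DSS for 6 days and then 1% L-Arg for 4 days, and DSS mice drank 4% DSS for 6 days and then water for 4 days. Ctrl+L-Arg mice received no DSS and drank 1% L-Arg for 4 days, Ctrl mice drank water, and all mice were sacrificed on day 10. DSS injures the colonic epithelium, so the model is one of chemical injury followed by a short recovery, in whole pieces of colon that hold all its cell types.

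Synthetases work before the ribosome. Each one recognizes a single amino acid, or glutamate and proline in the case of the fused enzyme Eprs, and loads it onto the matching tRNAs, so that the ribosome can read the genetic code. The cytosol and the mitochondrion mostly use separate enzymes, and all of those that act only in mitochondria are encoded in the nucleus and imported to translate the few proteins of the mitochondrial genome. In the cytosol, several synthetases sit together in the multisynthetase complex. Many cytosolic synthetase genes are targets of ATF4, the transcription factor of the amino acid and stress response, and Wars, the cytosolic tryptophanyl enzyme, is also induced by interferon-gamma in mouse and human cells.

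Promoter sequences of RefSeq (build GRCm38.p6, from 250 bases before to 50 after the transcription start) were matched for 26 of the 35 genes. Aars2, the mitochondrial alanyl enzyme, had a pair of them. Stretches with a motif of amino acid or mitochondrial gene control are shown, so that the 2 classes can be set side by side by sequence as well as by signal. The motifs were searched on both strands and were chosen after the sequences had been seen. The amino acid response motif TGATGNAA, to which ATF4 complexes are known to bind, was found in 0 of 15 mitochondrial and 4 of 12 cytosolic promoter windows and in 3.969% of the 32851 promoters of the table. It lay in the promoters of the tyrosyl, glycyl, isoleucyl and threonyl enzymes, shown 5′ to 3′ on the gene's strand with the motif, or its reverse complement, in capitals.
Yars, chr4:129189895-129189924, plus strand: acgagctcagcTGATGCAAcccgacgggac
Gars, chr6:55037960-55037989, plus strand: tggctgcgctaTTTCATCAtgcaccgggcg
Iars, chr13:49682126-49682155, plus strand: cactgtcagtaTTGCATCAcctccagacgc
Tars, chr15:11399655-11399684, minus strand: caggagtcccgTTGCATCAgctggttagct

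In Yars and Iars the match began 4 and 8 bases after the start, and in Gars and Tars it began 30 and 15 bases before it. The motif CGCATGCG, the core of the sequence bound by NRF1, a regulator of many nuclear genes for mitochondrial proteins, was found in 2 of 15 mitochondrial and 0 of 12 cytosolic windows and in 1.872% of all promoters. No window of a synthetase held both motifs. Vars2, the mitochondrial valyl enzyme, had the NRF1 core at 2 places, which are shown in capitals in the next pair of lines.
Vars2, chr17:35667621-35667650, minus strand: agagtcttttaCGCATGCGcctgcgtgtcc
Vars2, chr17:35667595-35667624, minus strand: gtccccgcccaCGCATGCGcgcgcacctcg

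Wars2, the mitochondrial tryptophanyl enzyme, carried it once, starting 63 bases before the transcription start. The 250 bases upstream of Wars2 are printed whole because it was the one mitochondrial synthetase called with DSS, again with the motif in capitals.
Wars2, chr3:99140840-99141089, plus strand: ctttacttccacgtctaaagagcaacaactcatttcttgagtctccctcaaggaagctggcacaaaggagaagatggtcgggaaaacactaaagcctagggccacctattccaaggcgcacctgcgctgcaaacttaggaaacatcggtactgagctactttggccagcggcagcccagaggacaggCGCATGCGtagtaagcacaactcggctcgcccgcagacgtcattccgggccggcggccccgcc

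A match describes the letters of a window, and factor binding was not measured. The promoters of Cars, Hars, Hars2, Lars, Nars, Pars2, Rars, Vars and Wars were not used here.

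In DSS compared with Ctrl colon, the mitochondrial synthetases were mostly lower and the cytosolic ones were divided. By group means, 15 of 16 mitochondrial enzymes were lower and 1 was higher, whereas 7 of 19 cytosolic enzymes were lower and 12 were higher. The median log2 fold change was -0.35 for the mitochondrial and 0.09 for the cytosolic enzymes, and -0.01 over all 19938 genes, of which 53.1% had a lower mean. Single genes were tested with limma on all 12 arrays, and a gene was called where its p, adjusted over all genes by the Benjamini-Hochberg method, was under 0.05. By this test Wars2 fell and Rars, the cytosolic arginyl enzyme, rose, where 2.23% of all genes were called lower and 1.80% higher. No synthetase passed the study's thresholds (p under 0.01 and a fold change over 2), which 2.13% of all genes did. In whole tissue, fewer cells of a type and less RNA per cell cannot be told apart.

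Wars2 had the largest decrease of the 35 enzymes. Its log2 signal was 7.59, 7.41 and 7.52 in DSS colons, against 8.15, 8.22 and 8.14 in Ctrl colons. All DSS mice lay below all Ctrl mice, and the gap between the groups was wider than the range within either. The log2 fold change was -0.66 (SE 0.11, adjusted p = 0.00848, limma, n = 3 per group), which leaves 0.631 of the Ctrl signal. The call was lost with the mouse number as a block in a fit of only DSS and Ctrl (adjusted p = 0.140, limma). SAM gave an adjusted p of 0.112, but with 3 mice per group it has too few label orders to call any gene. Wars, the cytosolic enzyme for the same amino acid, measured 10.44, 10.47 and 10.36 in DSS colons, against 10.31, 10.32 and 10.34 in Ctrl colons. The Wars groups did not overlap but lay close together, with a log2 fold change of 0.10 (adjusted p = 0.702).

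Rars charges tRNA with arginine, the amino acid that was supplemented in the study, and is a member of the multisynthetase complex. Its log2 signal was 10.63, 10.96 and 11.00 in DSS colons, against 10.32, 10.45 and 10.29 in Ctrl colons. The groups did not overlap, and DSS 1 was nearest to the Ctrl mice. The log2 fold change was 0.51 (SE 0.11, adjusted p = 0.0296), or 1.42-fold. The call was lost when Ctrl 1, Ctrl 2, Ctrl 3, DSS 2 or DSS 3 was left out in turn, with adjusted p of 0.106, 0.0515, 0.120, 0.0883 and 0.0698, and it was also lost with only DSS and Ctrl in the fit (0.121).

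Rars2, the mitochondrial arginyl enzyme, measured 8.81, 8.47 and 8.53 in DSS colons, against 8.87, 8.84 and 8.79 in Ctrl colons. DSS 1 lay among the Ctrl mice and the other two DSS mice below them. The log2 fold change was -0.23 (SE 0.10, adjusted p = 0.205), and the gene was not called.

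**Figure D1:**
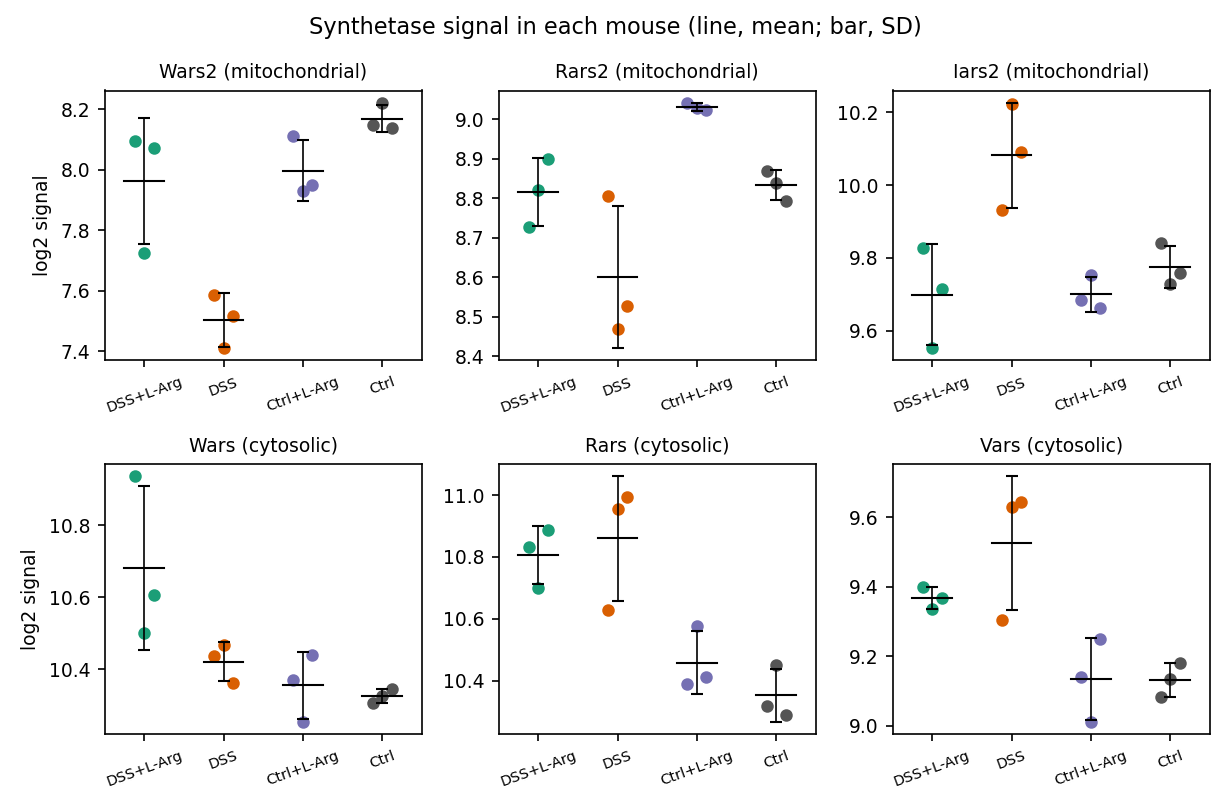
Log2 signal (y axis) of 6 synthetases in each mouse, with a point for each mouse and the groups along the x axis, the mitochondrial Wars2, Rars2 and Iars2 above the cytosolic Wars, Rars and Vars. Wars2 lay between 7.41 and 7.59 in DSS mice, below the 8.14 to 8.22 of Ctrl mice, and Rars lay between 10.63 and 11.00 in DSS mice, above the 10.29 to 10.45 of Ctrl mice.

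Of the other mitochondrial enzymes, none was called, but 7 had an unadjusted p under 0.05 in the lower direction and 1 in the higher. With Wars2 this made 8 of 16 lower, where 11.6% of all genes were lower at that p. The DSS values lay wholly below the Ctrl values for 8 of 16 mitochondrial enzymes (50.0%), against 14.3% of all genes. These were Wars2, Mars2, Lars2, Cars2, Aars2, Vars2, Fars2 and Hars2, which load tryptophan, methionine, leucine, cysteine, alanine, valine, phenylalanine and histidine. The DSS values lay wholly above the Ctrl values for 1 mitochondrial enzyme (6.25%), against 10.7% of all genes.

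The per-mouse values of the following enzymes were chosen after they had been seen. Mars2, the mitochondrial methionyl enzyme, measured 8.39, 7.94 and 8.68 in DSS colons, against 8.82, 8.86 and 8.81 in Ctrl colons. DSS 2 was far below the other DSS mice, which were themselves below every Ctrl mouse, and the log2 fold change was -0.50 (adjusted p = 0.0879). Lars2, the leucyl enzyme, measured 7.98, 7.96 and 7.93 in DSS colons, against 8.34, 8.57 and 8.29 in Ctrl colons. Here the DSS mice were tightly grouped and the Ctrl mice were not, and the log2 fold change was -0.44 (adjusted p = 0.115). Cars2, the cysteinyl enzyme, measured 7.76, 7.67 and 8.00 in DSS colons, against 8.14, 8.17 and 8.25 in Ctrl colons, with a log2 fold change of -0.38 (adjusted p = 0.0598).

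Iars2, the mitochondrial isoleucyl enzyme, was the exception. It measured 9.93, 10.22 and 10.09 in DSS colons, against 9.84, 9.73 and 9.76 in Ctrl colons. All DSS mice lay above all Ctrl mice, with a log2 fold change of 0.31 (adjusted p = 0.109), which was not called. Its cytosolic counterpart Iars had a log2 fold change of -0.16.

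Among the cytosolic enzymes, DSS values lay wholly above Ctrl values for 6 of 19 (31.6%), against 10.7% of all genes, and wholly below them for 2 of 19 (10.5%), against 14.3%. The higher ones were Rars, Qars, Vars, Sars, Lars and Wars, and the lower ones Yars and Tarsl2. At an unadjusted p under 0.05, 3 were higher (7.96% of all genes) and 1 was lower. Vars, the valyl enzyme, measured 9.30, 9.63 and 9.64 in DSS colons, against 9.08, 9.13 and 9.18 in Ctrl colons. Its log2 fold change was 0.39 (adjusted p = 0.0576). Qars, the glutaminyl enzyme, measured 10.63, 11.09 and 10.50 in DSS colons, against 10.42, 10.24 and 10.33 in Ctrl colons. DSS 2 was the highest, and the log2 fold change was 0.41 (adjusted p = 0.161).

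Yars, the tyrosyl enzyme, had the largest decrease of the cytosolic enzymes. It measured 8.93, 8.17 and 9.13 in DSS colons, against 9.41, 9.29 and 9.24 in Ctrl colons. The groups did not overlap, but DSS 2 lay far below the other DSS mice, and the log2 fold change was -0.57 (SE 0.20, adjusted p = 0.147). Yars2, its mitochondrial counterpart, measured 8.03, 7.34 and 8.48 in DSS colons, against 8.27, 8.30 and 8.51 in Ctrl colons. These groups overlapped, with DSS 2 again far below, and the log2 fold change was -0.41 (adjusted p = 0.338, limma).

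**Figure D2:**
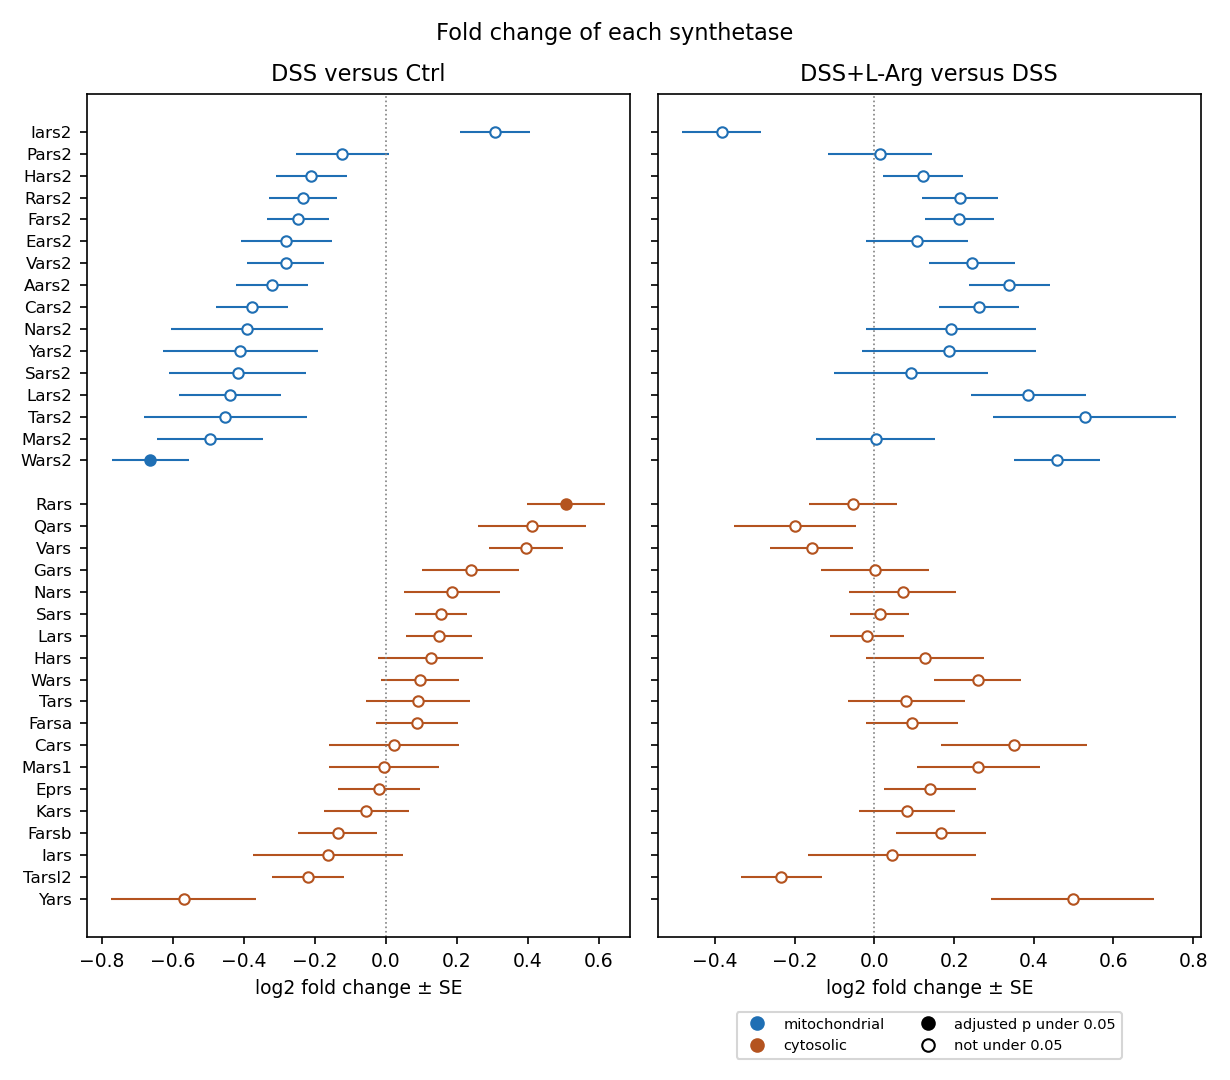
Log2 fold change (x axis, points with bars of 1 SE) of the 35 synthetases (rows) in DSS versus Ctrl and in DSS+L-Arg versus DSS, with filled points for an adjusted p under 0.05. With DSS, Wars2 (-0.66) and Rars (0.51) are filled and 15 of 16 mitochondrial enzymes lie left of 0. With L-Arg after DSS no point is filled and 15 of 16 mitochondrial enzymes lie right of 0.

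The 2 classes were also compared within amino acids. Of 13 pairs of a mitochondrial and a cytosolic enzyme for the same amino acid, with Fars2 set against the mean of the subunits Farsa and Farsb, the mitochondrial log2 fold change with DSS was below the cytosolic one in 11. The exceptions were isoleucine and tyrosine. Aars2, Ears2 and Pars2 had no pair, since Aars and the fused enzyme Eprs were not used. Tars2 was set against Tars without Tarsl2. The median difference was -0.54, and the largest were in tryptophan (-0.76), arginine (-0.74) and valine (-0.68). These differences were not tested, since the enzymes had been chosen with earlier results of these data known. Over the 7 of the 35 enzymes that belong to the multisynthetase complex (Eprs, Iars, Kars, Lars, Mars1, Qars and Rars) the median log2 fold change was -0.01, 3 being higher and 4 lower, and the other 12 cytosolic enzymes had a median of 0.09, with 9 higher and 3 lower.

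For a value per mouse, each enzyme was set against its Ctrl mean and the median was taken over the enzymes of a class. The mitochondrial median was -0.32, -0.52 and -0.15 in DSS mice 1, 2 and 3, against -0.01, -0.02 and 0.03 in Ctrl mice. The cytosolic median was 0.04, -0.13 and 0.33 in the DSS mice, against -0.02, 0.00 and 0.01 in the Ctrl mice. DSS 2 was the lowest and DSS 3 the highest in both classes, and the difference between the classes varied less than either median. The mitochondrial minus the cytosolic median was -0.37, -0.39 and -0.48 in DSS mice (mean -0.41, SD 0.06, n = 3), against 0.01, -0.03 and 0.02 in Ctrl mice.

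**Figure D3:**
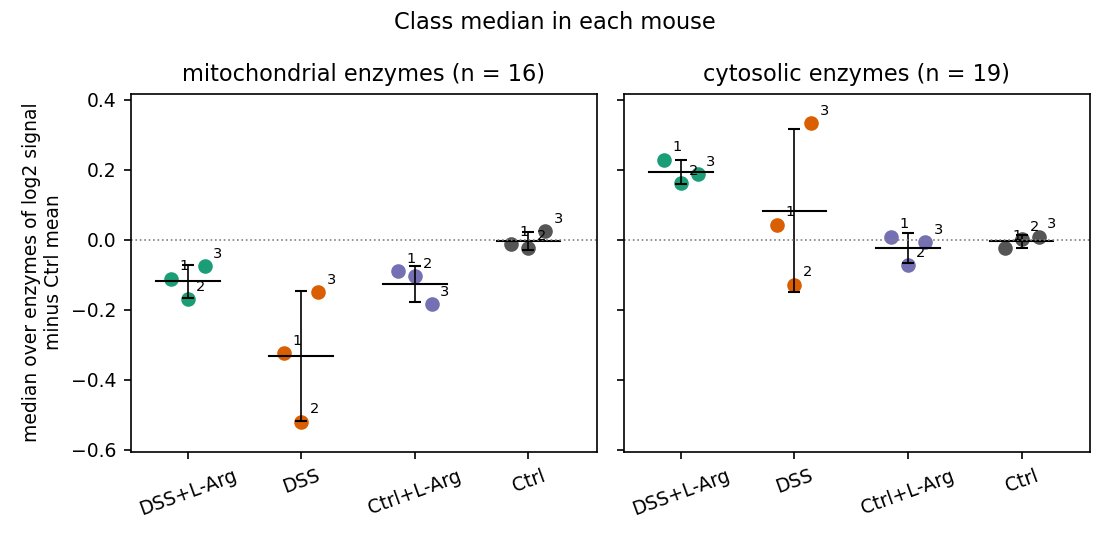
Median log2 signal relative to the Ctrl mean (y axis) over the 16 mitochondrial and the 19 cytosolic synthetases in each mouse, with numbered points for mice, lines for group means and bars for the SD (n = 3 mice). The DSS mice are spread from -0.52 to -0.15 for the mitochondrial and from -0.13 to 0.33 for the cytosolic enzymes.

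With L-Arg after DSS, the mitochondrial synthetases were mostly higher than with DSS alone, but no enzyme was called. The lowest adjusted p was 0.0999 (Wars2), and 0.115% of all genes were called higher and 0.522% lower. At an unadjusted p under 0.05 in limma, 8 mitochondrial enzymes were higher and 1 was lower, and 2 cytosolic enzymes were higher and 1 was lower, against 7.99% and 5.53% of all genes. SAM called no synthetase after adjustment in this or any other comparison of groups. By group means, DSS+L-Arg colon exceeded DSS colon in 15 of 16 mitochondrial and 14 of 19 cytosolic enzymes, and in 62.8% of all genes. The median log2 fold change was 0.20 for the mitochondrial and 0.08 for the cytosolic enzymes, and 0.06 over all genes. Without DSS 2, the mouse with the lowest class medians, 9 of 16 mitochondrial and 9 of 19 cytosolic enzymes were higher. This comparison and that of DSS with Ctrl use the same DSS mice, so opposite signs in the 2 comparisons are not independent of each other.

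Wars2 measured 8.09, 7.72 and 8.07 in DSS+L-Arg colons, against 7.59, 7.41 and 7.52 in DSS colons. All DSS+L-Arg mice lay above all DSS mice, with DSS+L-Arg 2 the nearest to them, and the log2 fold change was 0.46 (SE 0.11, adjusted p = 0.0999). Iars2 was again the exception among the mitochondrial enzymes. It measured 9.83, 9.55 and 9.72 in DSS+L-Arg colons, against 9.93, 10.22 and 10.09 in DSS colons, with a log2 fold change of -0.38 (adjusted p = 0.132).

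The DSS+L-Arg values lay wholly above the DSS values for 4 of 16 mitochondrial enzymes, namely Wars2, Lars2, Aars2 and Fars2, against 11.0% of all genes. They lay wholly below for Iars2, against 5.60% of all genes. Aars2 measured 7.51, 7.64 and 7.78 in DSS+L-Arg colons, against 7.41, 7.11 and 7.39 in DSS colons. Its log2 fold change was 0.34 (adjusted p = 0.190), and DSS+L-Arg 1 lay just above DSS 1.

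Of the cytosolic enzymes, Wars lay wholly above and Tarsl2 wholly below the DSS values. Wars measured 10.94, 10.50 and 10.61 in DSS+L-Arg colons, against 10.44, 10.47 and 10.36 in DSS colons. DSS+L-Arg 1 was well above the rest and DSS+L-Arg 2 was close to the DSS mice, and the log2 fold change was 0.26 (adjusted p = 0.331). The arginyl enzymes did not separate with L-Arg. Rars measured 10.83, 10.70 and 10.89 in DSS+L-Arg colons, against 10.63, 10.96 and 11.00 in DSS colons (log2 fold change -0.05, adjusted p = 0.860). Rars2 measured 8.73, 8.82 and 8.90 in DSS+L-Arg colons, against 8.81, 8.47 and 8.53 in DSS colons (0.22, adjusted p = 0.357).

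**Figure D4:**
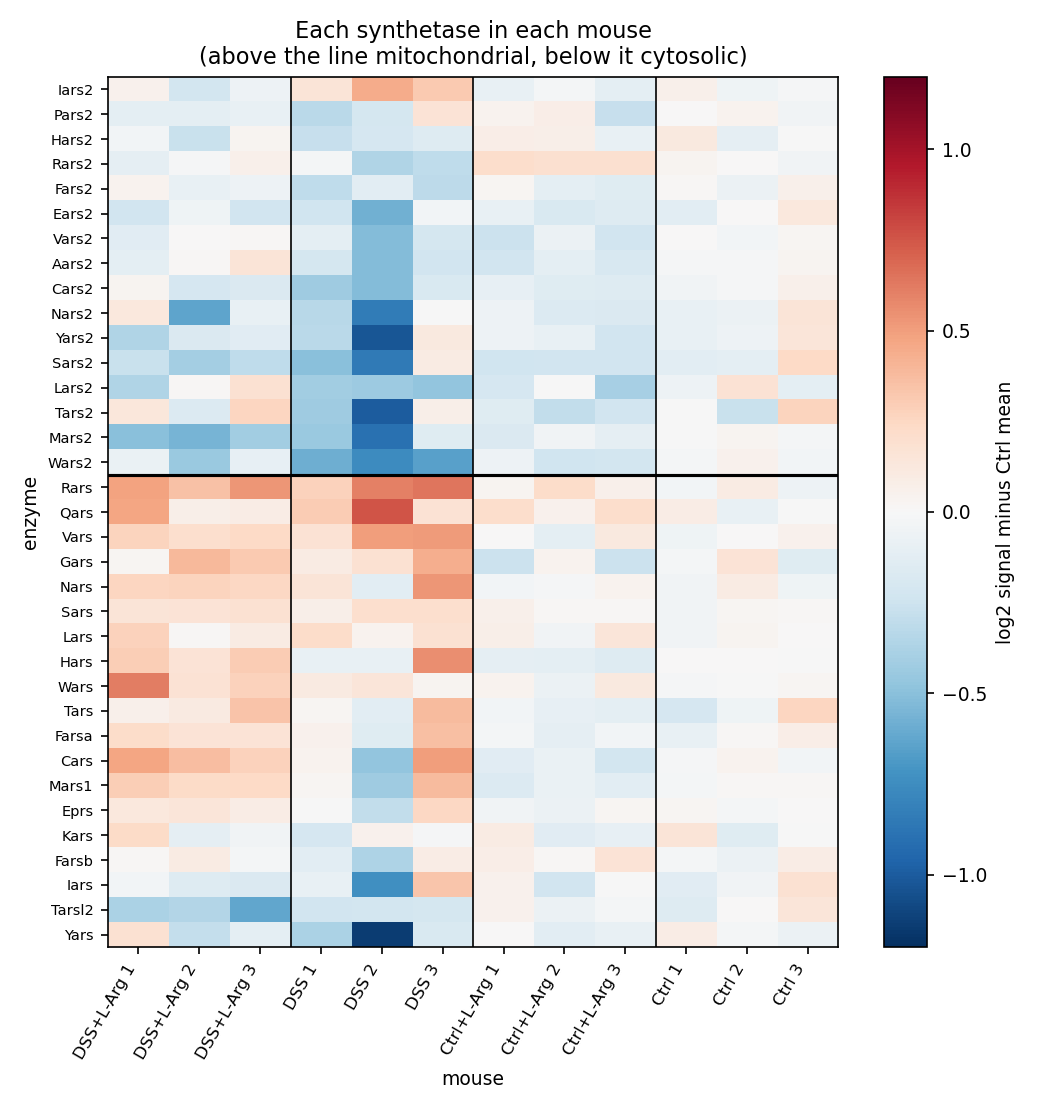
Log2 signal minus the Ctrl mean (colour, red higher and blue lower) of the 35 synthetases (rows) in the 12 mice (columns, by group). DSS 2 shows the deepest blue, down to Yars, and 15, 15 and 11 of 16 mitochondrial rows lie below the Ctrl mean in DSS mice 1, 2 and 3. In DSS+L-Arg mice these are 11, 13 and 10 rows, and in Ctrl+L-Arg mice 12, 13 and 15.

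The DSS+L-Arg mice were alike in both classes. Their mitochondrial median relative to the Ctrl mean was -0.11, -0.17 and -0.08, and their cytosolic median was 0.23, 0.16 and 0.19. The mitochondrial minus the cytosolic median was -0.34, -0.33 and -0.26 in DSS+L-Arg mice (mean -0.31, SD 0.04, n = 3), against -0.37, -0.39 and -0.48 in DSS mice. All DSS+L-Arg mice were thus nearer to 0 than all DSS mice. However, DSS+L-Arg 1 and DSS 1 lay closer together than the pooled within-group SD (0.05). Ctrl mice lie near 0 because their own mean was subtracted. In Ctrl+L-Arg mice, whose mean was not subtracted, the difference was -0.10, -0.03 and -0.18, and all mice given DSS lay below these values.

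Set against Ctrl, DSS+L-Arg colon showed no called synthetase (lowest adjusted p = 0.133, limma, with 0.0301% of all genes called higher and 0.0351% lower). At an unadjusted p under 0.05, 4 cytosolic enzymes were higher and 1 was lower, and 1 mitochondrial enzyme was lower, against 6.96% of all genes higher and 5.67% lower. The cytosolic enzymes were mostly higher, in 16 of 19 by group means, with a median log2 fold change of 0.18. For 10 of 19 (52.6%) the groups did not overlap in this direction, against 13.5% of all genes. These were Rars, Cars, Wars, Nars, Mars1, Hars, Vars, Farsa, Sars and Eprs, and Tarsl2 was the one lower without overlap. Tarsl2 measured 5.83, 5.86 and 5.59 in DSS+L-Arg colons, against 6.06, 6.22 and 6.36 in Ctrl colons. It had the lowest adjusted p (log2 fold change -0.45) and was the dimmest of the 35 enzymes (mean log2 signal 6.04, below every array median). Of the mitochondrial enzymes, 14 of 16 were lower by group means, with a median of -0.10, and 5 (31.25%) were lower without overlap, against 9.69% of all genes. With each array centred on its median 10 of 16 were lower by group means and 2 without overlap, and after a further quantile normalization 11 and 3. Shares of all genes were not taken under these other scalings.

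Nars, the asparaginyl enzyme, measured 11.05, 11.05 and 11.04 in DSS+L-Arg colons, against 10.74, 10.88 and 10.74 in Ctrl colons. Mars2 measured 8.33, 8.27 and 8.42 in DSS+L-Arg colons, against 8.82, 8.86 and 8.81 in Ctrl colons. The DSS+L-Arg mice were as low as the DSS mice for Mars2, with a log2 fold change of -0.49 against Ctrl (adjusted p = 0.242). Wars2 lay below the Ctrl range in every DSS+L-Arg mouse (-0.21, adjusted p = 0.461), and Rars lay above it in each (0.45, adjusted p = 0.164).

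Set against Ctrl+L-Arg, the mice that had the same drink without DSS, the DSS+L-Arg colon again had no called synthetase. The lowest adjusted p was 0.0989 (limma) for Tarsl2, with a log2 fold change of -0.44. Of all genes, 0.201% were called higher and 0.105% lower. At an unadjusted p under 0.05, 7 cytosolic enzymes were higher and 1 was lower, and 2 mitochondrial enzymes were lower, against 8.95% of all genes higher and 6.60% lower. Of the cytosolic enzymes, 15 of 19 had a higher mean, with a median log2 fold change of 0.23, and 11 (57.9%) were higher without overlap, against 12.9% of all genes. Cars, the cysteinyl enzyme, measured 8.69, 8.59 and 8.50 in DSS+L-Arg colons, against 8.08, 8.14 and 8.00 in Ctrl+L-Arg colons. Its log2 fold change was 0.52 (adjusted p = 0.222). The mitochondrial enzymes were divided, with 6 higher and 10 lower by group means as deposited but 10 higher and 6 lower with each array centred on its median, and their median log2 fold change was -0.03. Without overlap, 3 of them were lower and 1 was higher, against 8.13% of all genes lower.

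In Ctrl+L-Arg compared with Ctrl colon, no synthetase was called (lowest adjusted p = 0.999, limma) and none had an unadjusted p under 0.05. No gene at all was called in either direction (0%), and 1.33% of all genes were higher and 2.11% lower at the unadjusted threshold. By group means 14 of 16 mitochondrial and 12 of 19 cytosolic enzymes were lower, with median log2 fold changes of -0.13 and -0.03, and after a further quantile normalization 11 of 19 cytosolic enzymes were higher instead. The groups did not overlap for 6 lower mitochondrial enzymes, against 6.71% of all genes, and for 3 lower cytosolic enzymes. The one enzyme higher without overlap, against 3.66% of all genes, was Rars2. It measured 9.04, 9.03 and 9.02 in Ctrl+L-Arg colons, against 8.87, 8.84 and 8.79 in Ctrl colons, with a log2 fold change of 0.20 (SE 0.10, adjusted p = 0.999). The Ctrl+L-Arg mice were nearly identical for this gene, and Rars overlapped between the groups (0.10).

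Whether L-Arg acted differently after DSS than without DSS was tested as the difference between its 2 effects. No synthetase was called (lowest adjusted p = 0.177, Wars2, with 0.0100% of all genes called higher and 0.0652% lower). At an unadjusted p under 0.05 the difference was positive for 7 mitochondrial enzymes and no cytosolic one, and negative for 1 mitochondrial enzyme, against 6.62% of all genes positive and 4.19% negative. The 7 were Wars2, Aars2, Lars2, Vars2, Cars2, Fars2 and Tars2, and the negative one was Iars2. The difference holds the comparison of DSS with Ctrl with its sign reversed, so it is not independent of that comparison. There the 7 had a lower mean with DSS, and Iars2 had a higher one. For Wars2 the difference was 0.63 on the log2 scale (SE 0.15), and for Rars and Rars2 it was -0.16 and 0.02 (adjusted p = 0.780 and 0.978). The median difference was 0.32 over the mitochondrial and 0.13 over the cytosolic enzymes.

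Other genes of translation and of mitochondria were read in the same mice. The factors of mitochondrial translation (10 genes) had a median log2 fold change of -0.26 in DSS versus Ctrl, and Mrrf, which recycles mitochondrial ribosomes, fell by 0.55 (adjusted p = 0.0371). Of 21 other genes of mitochondrial proteins, Ogdh, an enzyme of the citric acid cycle, fell by 0.54 (adjusted p = 0.0313), and their median was -0.17. Per mouse, the median of the translation factors was -0.30, -0.70 and -0.09 in DSS mice 1, 2 and 3 relative to the Ctrl mean, and that of the other mitochondrial genes was -0.11, -0.31 and -0.03. These lists and the mitochondrial synthetases were each lowest in DSS 2 and highest in DSS 3. Of the genes of cytosolic translation, 0 of 6 elongation factors and 0 of 3 scaffold genes of the multisynthetase complex were called, with medians of 0.04 and 0.00 (limma). Of 13 partners of tRNA charging and editing, which include both cytosolic and mitochondrial proteins, none was called and the median was -0.06. Gatb, a subunit of the mitochondrial enzyme that makes glutaminyl-tRNA, had a log2 fold change of -0.33 (adjusted p = 0.134). In Aimp1, one of the scaffolds, the log2 fold change was 0.45 (adjusted p = 0.0718).

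Of 28 genes of the ATF4 pathway, 3 rose with DSS and none fell, where 1.80% of all genes were called higher. Slc7a11, the cystine transporter, rose by 2.66 (adjusted p = 0.0241), Eif4ebp1, a translation repressor, by 0.83 (0.0206), and Cebpb, a transcription factor, by 0.47 (0.0444). Slc7a11 was 9.67 in DSS 3 and 7.12 and 7.31 in the other DSS mice, against 4.85 to 5.84 in Ctrl mice. Genes of the list that were not called lay in both directions, with log2 fold changes of 0.32 for Asns, the asparagine synthetase (adjusted p = 0.528), -1.10 for Atf3, a transcription factor of the stress response (0.0767), and -0.49 for Cth, an enzyme of cysteine synthesis (0.155). The median of the list was 0.09. Of 18 interferon-gamma response genes, none was called in DSS versus Ctrl, and Irf8, a transcription factor, rose by 0.63 in DSS+L-Arg versus Ctrl+L-Arg (adjusted p = 0.0498). Their median relative to the Ctrl mean was 1.00, 0.43 and 0.38 in DSS+L-Arg mice 1, 2 and 3, against 0.39, 0.02 and 0.04 in DSS mice. DSS+L-Arg 1 was highest there and in Wars, but among DSS mice the list was highest in DSS 1 and Wars in DSS 2 (10.47). Irf8 was lowest of its group in DSS+L-Arg 1 (log2 signal 9.66). A link between Wars and this list was not tested.

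Markers of other cells moved in the same comparisons. With DSS, 7 of 12 neutrophil and 10 of 14 monocyte and macrophage markers were called higher, where 1.80% of all genes were. Mpo (-0.02) and Elane (0.14) were among the neutrophil markers not called. The per-mouse neutrophil median was 1.47 to 3.39 in DSS mice, against -0.25 to 0.33 in Ctrl mice. The monocyte and macrophage median was 1.00 to 1.92 in DSS mice, against -0.08 to 0.09 in Ctrl mice. With L-Arg after DSS, 3 of the neutrophil and 5 of the monocyte and macrophage markers were called lower, where 0.522% of all genes were. Of 10 fibroblast markers, Dcn, Pdgfra and Pdpn were called higher with DSS (by 1.54, 1.34 and 1.27). Thy1 went the other way (-0.45) and was not called. With L-Arg after DSS, Dcn fell by 1.37 (adjusted p = 0.0489, limma). The fibroblast median was 0.42 to 1.06 in DSS mice, against -0.15 to 0.18 in Ctrl mice. The smooth muscle median (10 markers) was -1.50 to -0.72 in DSS mice, against -0.42 to 0.74 in Ctrl mice, and the proliferation median (11 markers) was 0.10, -0.85 and 0.85 in DSS mice 1, 2 and 3, lowest in the mouse in which both synthetase classes were lowest and highest in the mouse in which both were highest. Their part in the synthetase values was not tested. Of the epithelial markers, Epcam lay at 12.03 to 12.27 and Cdh17 at 12.38 to 12.89 on the 12 arrays. The median of 17 colonic epithelial markers stayed between -0.09 and 0.04 relative to the Ctrl mean on all 12 arrays. Of these 17, Clca1, a goblet cell product, and Car4, a carbonic anhydrase, were called lower with DSS, where 2.23% of all genes were. They fell by 1.42 and 0.58 (adjusted p = 0.0400 and 0.0106, limma).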

How the data were processed

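Affymetrix Expression Console 1.1, RMA and build mm9 are named in the submitters' processing notes. The values, as deposited by the authors, are log2 signals per probe set, already background-corrected, quantile-normalized and summarized by RMA, which hides any change common to most genes. Signals of different probe sets are not comparable as levels. Arrays have no read depth, and 3 mice per group limit the precision. Array medians lay between 6.49 and 6.64, and mice of a group differed by over 0.01 in at least 95.1% of genes.

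Of 35556 probe sets, 21789 carried 1 gene, 1621 several, and 12146 were not in the platform table. The brightest per gene gave 19938 genes. All 35 synthetases matched RefSeq and passed a filter above the 30th percentile in 3 arrays. Contrasts came from limma 3.58.1 (R 4.3.3) with 1 mean per group over 12 arrays (8 residual and 3.37 prior degrees of freedom), and p-values were adjusted over all genes. Python 3.11.15, pandas 2.3.3 and matplotlib 3.10.9 served for tables and plots. The pipeline was tested on simulated data.

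The members and lists were chosen with earlier results of these data known. Values per mouse were set by rule for called members, Rars, Rars2, Wars and Wars2, and up to 4 called genes of each other list could be named. Other genes were picked after their values were seen.

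The labels number the mice 1 to 3 and do not say that numbers pair mice. Same-numbered mice deviated together in every pair (correlations 0.205, 0.477 and 0.261) for Ctrl+L-Arg and Ctrl alone. Ctrl 3 and Ctrl+L-Arg 1, which differ in number, reached 0.272, so the check does not establish pairing. Alternatives were a fit of the groups compared, a block for mouse number, median centring, quantile normalization, the low-value filter, the mean of probe sets, a trended robust prior, array weights, SAM with all label orders, other class definitions and leaving out each array. Comparisons by group means or overlap under these were added after the data were seen.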

Additional observations from a re-analysis of the deposited data

How the results depend on the processing

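Wars2 kept its decrease in DSS versus Ctrl in all 22 alternatives and was called in 20 of them (adjusted p = 0.00463 to 0.140, limma or SAM). The call was lost with a replicate block in a fit of only DSS and Ctrl (0.140, limma), and SAM (0.112) could not call any gene. Rars kept its increase in all 22 and was called in 14 (0.00646 to 0.210). The call was lost with only DSS and Ctrl in the fit, with that fit and the replicate block (0.210), and on leaving out any of 5 single arrays. SAM (0.147), which could call no gene, did not call it. In numbers of cytosolic enzymes called higher with DSS, these settings gave 0 each, a further quantile normalization gave 2, and leaving out 1 array gave 0 to 2. For mitochondrial enzymes called lower, the replicate block in the fit of DSS and Ctrl and SAM gave 0, quantile normalization 2, array weights 3, and leaving out 1 array 1 to 4 (4 without DSS 3, 2 without DSS 1, among them Rars2 at 0.0441). Array weights also called 1 cytosolic enzyme higher (Rars, adjusted p = 0.0299, limma), 1 cytosolic lower and 1 mitochondrial lower in DSS+L-Arg versus Ctrl. They called 1 cytosolic lower in DSS+L-Arg versus Ctrl+L-Arg, where leaving out 1 array gave 0 to 1 cytosolic higher. Shares of all genes called were taken from the main fit only. The counts under other settings are therefore not set against all genes and are not read as results about synthetases.

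By the check above, all same-numbered mice deviated together in Ctrl+L-Arg versus Ctrl only, which does not establish pairing. There the replicate block called 0 enzymes, as did the fit without it. A block over all arrays kept Wars2 (0.0117) and Rars (0.0387) called in DSS versus Ctrl. In the fit of DSS and Ctrl alone, the block removed the call of Wars2 (adjusted p = 0.140, limma). Rars was not called in that fit without the block either (0.121). The block changed no other call. The cause of the loss for Wars2 was not tested.

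The mitochondrial minus the cytosolic median log2 fold change was -0.44 in DSS versus Ctrl (-0.48 to -0.36 without single arrays), 0.12 in DSS+L-Arg versus DSS (0.0839 to 0.18) and -0.27 in DSS+L-Arg versus Ctrl+L-Arg (-0.29 to -0.18, and -0.20 after quantile normalization). For the difference of the L-Arg effects it was 0.19 (0.0790 to 0.24, lowest without DSS 2). In DSS versus Ctrl, 15 of 16 mitochondrial enzymes had a lower mean without any single array, whereas the cytosolic number was 4 without DSS 2 and 11 without DSS 3.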

Other observations

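The probe set shared by Aars, the cytosolic alanyl enzyme, and Exosc6, an exosome subunit, entered no comparison. Its log2 signal was 9.13, 9.09 and 9.08 in DSS+L-Arg colons, 9.04, 8.72 and 9.21 in DSS colons, 8.85, 8.83 and 8.90 in Ctrl+L-Arg colons, and 8.94, 8.91 and 8.91 in Ctrl colons. The DSS+L-Arg mice lay above all mice without DSS, and the DSS mice lay on both sides of them.

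Iars had a dimmer probe set that was not used. It measured 9.16, 8.67 and 9.59 in DSS colons, against 9.30, 9.24 and 9.44 in Ctrl colons, with DSS 2 the lowest and DSS 3 the highest mouse, as on the probe set that was used (10.27, 9.63 and 10.70 in DSS colons).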
